A study of Homo sapiens with 8 samples.

Results

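The USP genes encode the ubiquitin-specific proteases, the largest family of human deubiquitinases. These data cover 47 USP genes, taken as every gene whose platform symbol is USP followed by digits and an optional letter, with USP18 left out. They had 69 probes, of 48797 in all. A probe was kept if at least 4 of the 8 arrays gave it a detection p-value under 0.05. This kept 48 USP probes for 36 genes, of 18184 probes in all. The samples were tumor cells of IGROV-1, a human line from an ovarian carcinoma that is kept as ascites in mice, and were taken from the peritoneal wall. In 1 group the ascites-bearing mice received saline (4 arrays) and in the other CpG-ODN, the phosphorothioated oligonucleotide ODN1826, at 20 µg per mouse into the peritoneal cavity (4 arrays). Treatment began 10 to 11 days after the cells were injected, and cells were taken 24 hours after the last dose. Dosing on 3 days in a row or only 1 time is named without tying either to an array, so the CpG-ODN group may mix both. They give 4 mice per group, tie no array to a mouse, and name neither the strain nor the age of the mice.

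Ubiquitin is joined to proteins by a cascade of activating, conjugating and ligating enzymes, and deubiquitinases cut it off again. The USP enzymes do this with a catalytic cysteine and act on histones, on repair proteins, on receptors in endosomes, on mitochondrial surface proteins and on proteins bound for the proteasome. A few family members have no protease activity and serve as scaffolds, USP39 of the spliceosome among them. CpG-ODN is recognised by Toll-like receptor 9, a sensor of unmethylated CpG DNA, and ubiquitin chains carry much of the signal below that receptor.

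The arrays differed little in brightness, with mean raw signals of 876 to 1079 in saline and 806 to 1073 with CpG-ODN. Probes detected numbered 18784 to 20114 on the saline arrays and 18425 to 18570 on the CpG-ODN arrays. Of the 69 USP probes, 47 to 51 were detected per saline array and 42 to 48 per CpG-ODN array. Of 10 ovarian carcinoma epithelium marker genes, 9 were detected on at least 4 arrays, and WT1 was detected on 0. The leukocyte gene PTPRC and the erythroid gene HBB were detected on 0 arrays. For the 15 probes of 7 macrophage genes, of which 4 genes were kept, the summed raw signal was 9396 to 12120 in saline and 11095 to 14404 with CpG-ODN. For the 4 probes of 4 endothelial genes, of which 3 were kept, it was 1254 to 1548 in saline and 1309 to 1885 with CpG-ODN. Both pairs of ranges overlap. Of the kept probes of these lists, 2 of 3 endothelial ones rose, those of VWF and CDH5. Of 6 macrophage ones 2 rose (CD14 and 1 of CD68) and that of AIF1 fell. Of 13 ovarian carcinoma epithelium ones 2 rose (1 of PAX8 and 1 of KRT18) and 0 fell, and of 2 fibroblast ones 0 were called. Over all kept probes 26.6% were called (limma, adjusted p under 0.05). CSF1R and PTPRC of the macrophage list were at 0 arrays, and of 4 lymphocyte genes 0 were kept. The markers are human genes and the hosts were mice, so these probes need not read host cells. Their signal is therefore no measure of how many host leukocytes, red cells or endothelial cells were present. The part of other cells in the USP values was not tested. In such bulk samples fewer cells of a type and less RNA per cell cannot be told apart.

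The comparison asked how the tumor cells' transcripts differed after CpG-ODN. Of the 48 USP probes, 3 rose and 11 fell, 14 called or 29.2%, against 26.6% of all kept probes (12.8% higher and 13.9% lower). A probe was called where limma's two-sided test gave an adjusted p under 0.05. The share called was near the background. Among the 11 that fell, a dim probe of USP4 had passed the detection filter through the saline group alone and had to differ. The share lower was 22.9% among USP probes and the share higher 6.25%, but this split moved with the scaling of the arrays. With each array's median set over all probes, 2 USP probes rose and 12 fell, and 858 probes rose and 2775 fell in all. With the median set over the kept probes alone, 6 USP probes rose and 9 fell, and 2920 probes rose and 2195 fell in all, where the quantile normalization used here gave 2322 and 2521. More USP probes fell than rose in all 17 alternative settings. The median log2 fold change was -0.14 over the USP probes and 0.01 over all kept probes. The first scaling moved the median of all kept probes to -0.10 and the second to 0.10, and the USP median lay 0.15 to 0.19 below it in the 3 settings. The median size of change, with no sign, was 0.36 for USP probes and 0.28 for all kept probes.

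**Figure D1:**
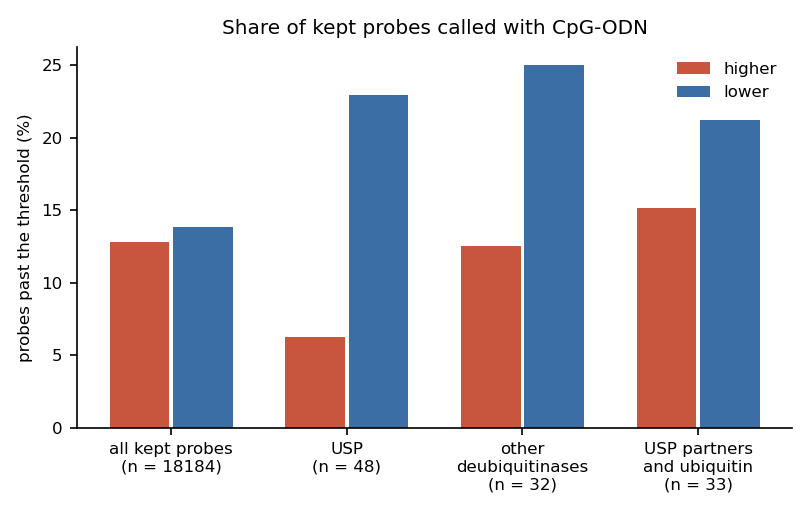
Percentage of kept probes (vertical axis) called higher (red) or lower (blue) with CpG-ODN for all kept probes, USP probes, other deubiquitinases and USP partners, with the number of probes under each name. USP probes stood at 6.25% higher and 22.9% lower, all kept probes at 12.8% and 13.9%.

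Read by the kept probe with the highest mean, 10 of 36 USP genes changed, 3 up and 7 down, and 12 genes had at least 1 called probe. With the median set over all probes, 2 genes rose and 8 fell by this reading. With it set over the kept probes alone, 6 rose and 6 fell, so more genes falling than rising did not hold there. The share of all genes changed by this reading was not computed, so these gene counts have no background beside them. Of the 48 USP probes, 4 were called and changed by 2-fold or more, those of USP19, USP37, USP33 and USP11, against 5.80% of all kept probes. With no background correction these 4 stood at 0.73, -0.79, -0.72 and -0.50 on the log2 scale, and in the authors' second table at 0.74, -0.79, -0.73 and -0.51, so 0 reached 2-fold there. In both, 13 of the 14 called probes still passed, USP46 being the exception, but their log2 changes here were 1.06 to 3.02 times as large as with no background correction. The size of each fold below therefore depends on that step. The groups did not overlap at 19 USP probes (39.6%), against 28.9% of all kept probes. Of the 48 USP probes, all CpG-ODN arrays were higher at 6 and lower at 13, against 14.0% and 14.9% of all kept probes. The 13 include the dim probe of USP4 that had to differ. The other 34 USP probes stood between -0.65 and 0.61 on the log2 scale and did not pass, though 23 of the 48 had an unadjusted p under 0.05. The share of all kept probes at that unadjusted p was not computed.

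**Figure D2:**
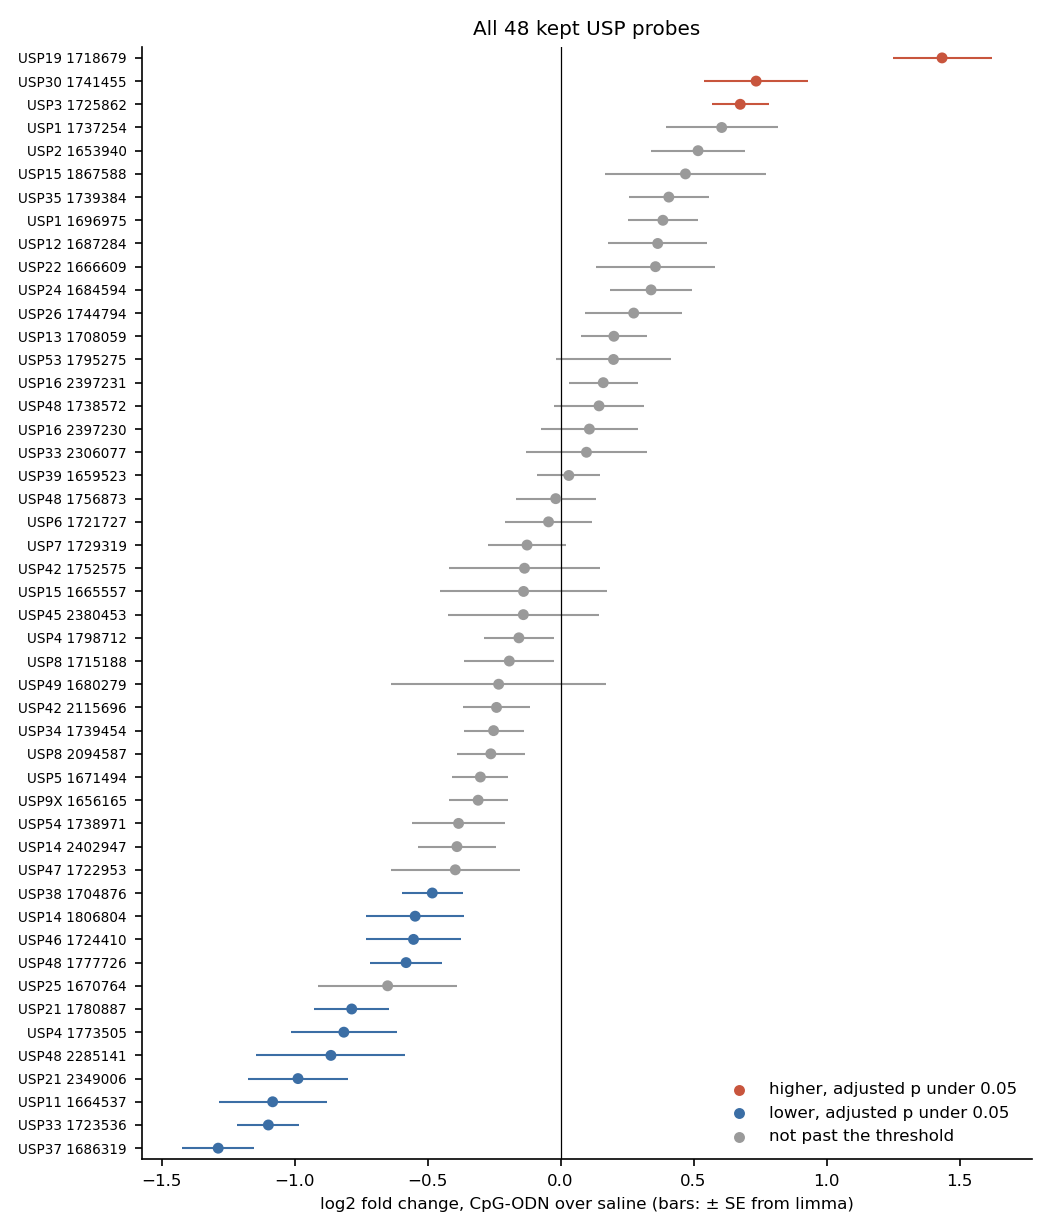
Log2 fold change of CpG-ODN over saline (horizontal axis) with its standard error for each of the 48 kept USP probes, named by gene and by the number of the Illumina probe. Points run from 1.43 for USP19 to -1.29 for USP37, with called probes in red (higher) and blue (lower) and the others in grey.

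USP19 rose most. It is an enzyme of protein quality control with a form anchored in the endoplasmic reticulum. Its normalized log2 signal (probe ILMN_1718679) was 7.29, 6.41, 6.62 and 6.98 in saline replicates 1 to 4 and 8.15, 8.45, 8.17 and 8.27 in CpG-ODN replicates 1 to 4. All CpG-ODN arrays were above all saline arrays, and the saline arrays were more spread (SD 0.39 against 0.14, n = 4 each). On the log2 scale the change was 1.43 ± 0.19 (SE, adjusted p = 0.0005), or 2.70-fold, and 0.73 with no background correction (adjusted p = 6.46e-05).

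USP3, which removes ubiquitin from histone H2A, gave the tightest groups among the probes that rose. Its signal (ILMN_1725862) was 11.19, 11.04, 11.09 and 11.03 in saline and 11.79, 11.79, 11.80 and 11.68 with CpG-ODN, in the order of the replicates. The groups lay clearly apart, with SDs of 0.073 and 0.059 (n = 4 each). On the log2 scale the change was 0.68 ± 0.11 (SE, adjusted p = 0.00141).

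USP30 sits in the outer mitochondrial membrane and opposes the ubiquitin marks that lead to mitophagy. Its signal (ILMN_1741455) was 6.36, 6.65, 6.05 and 6.52 in saline and 7.01, 7.31, 7.51 and 6.69 with CpG-ODN. All CpG-ODN arrays were above all saline arrays, but saline replicate 2 came close to CpG-ODN replicate 4. On the log2 scale the change was 0.74 ± 0.20 (SE, adjusted p = 0.0193). Median scaling over all probes ended the call (adjusted p = 0.0947), as did leaving out saline replicate 3 (adjusted p = 0.0512) or CpG-ODN replicate 2 (adjusted p = 0.0529). USP35, also linked to mitochondria, stood at 0.41 ± 0.15 with all CpG-ODN arrays higher and did not pass (adjusted p = 0.0694).

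USP37 fell most. It stabilises cyclin A and so acts on entry into S phase. Its signal (ILMN_1686319) was 8.75, 8.55, 8.89 and 8.89 in saline and 7.33, 7.74, 7.49 and 7.37 with CpG-ODN. All CpG-ODN arrays were below all saline arrays, and the gap between the groups was wider than the range of either. On the log2 scale the change was -1.29 ± 0.14 (SE, adjusted p = 0.000183). USP44, a gene of the mitotic checkpoint, had no probe detected on any array.

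USP33 and USP11 followed. USP33 acts on membrane receptors and their recycling. Its probe ILMN_1723536 was at 9.07, 8.92, 8.84 and 8.97 in saline and at 8.03, 7.79, 7.78 and 7.81 with CpG-ODN, a change of -1.10 ± 0.12 on the log2 scale (SE, adjusted p = 0.000183). Both groups were tight and did not overlap. USP11 acts with BRCA2 and PALB2 in homologous recombination. Its probe ILMN_1664537 was at 7.62, 7.77, 7.98 and 8.0 in saline and at 6.30, 7.33, 6.63 and 6.77 with CpG-ODN, a change of -1.08 ± 0.20 on the log2 scale (SE, adjusted p = 0.00354). The CpG-ODN arrays of USP11 ranged more widely, with replicate 2 nearest to saline.

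USP21, an enzyme of histone H2A and of receptor signaling proteins, fell by both of its kept probes. Probe ILMN_2349006 was at 8.97, 8.83, 8.74 and 9.05 in saline and at 7.35, 8.29, 8.02 and 7.98 with CpG-ODN, a change of -0.99 ± 0.19 on the log2 scale (SE, adjusted p = 0.00394). Probe ILMN_1780887 was at 8.50, 8.29, 8.72 and 8.58 in saline and at 7.52, 7.83, 7.64 and 7.95 with CpG-ODN, a change of -0.79 ± 0.14 on the log2 scale (SE, adjusted p = 0.00284). Neither probe's groups overlapped. USP38 gave the smallest called change, from 10.75, 10.86, 10.74 and 10.56 in saline to 10.33, 10.24, 10.28 and 10.13 with CpG-ODN. This was a change of -0.48 ± 0.12 on the log2 scale (SE, adjusted p = 0.0119) with no overlap.

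USP46, a partner of WDR48, fell by a narrow margin. Its signal (ILMN_1724410) was 7.25, 7.88, 7.13 and 7.26 in saline and 6.85, 6.64, 7.08 and 6.73 with CpG-ODN. The groups did not overlap, but saline replicate 3 and CpG-ODN replicate 3 almost met. On the log2 scale the change was -0.55 ± 0.18 (SE, adjusted p = 0.0424), and the call was lost on leaving out any 1 of 6 arrays, with adjusted p up to 0.105. Only without saline replicate 3 or CpG-ODN replicate 3 did it stay.

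**Figure D3:**
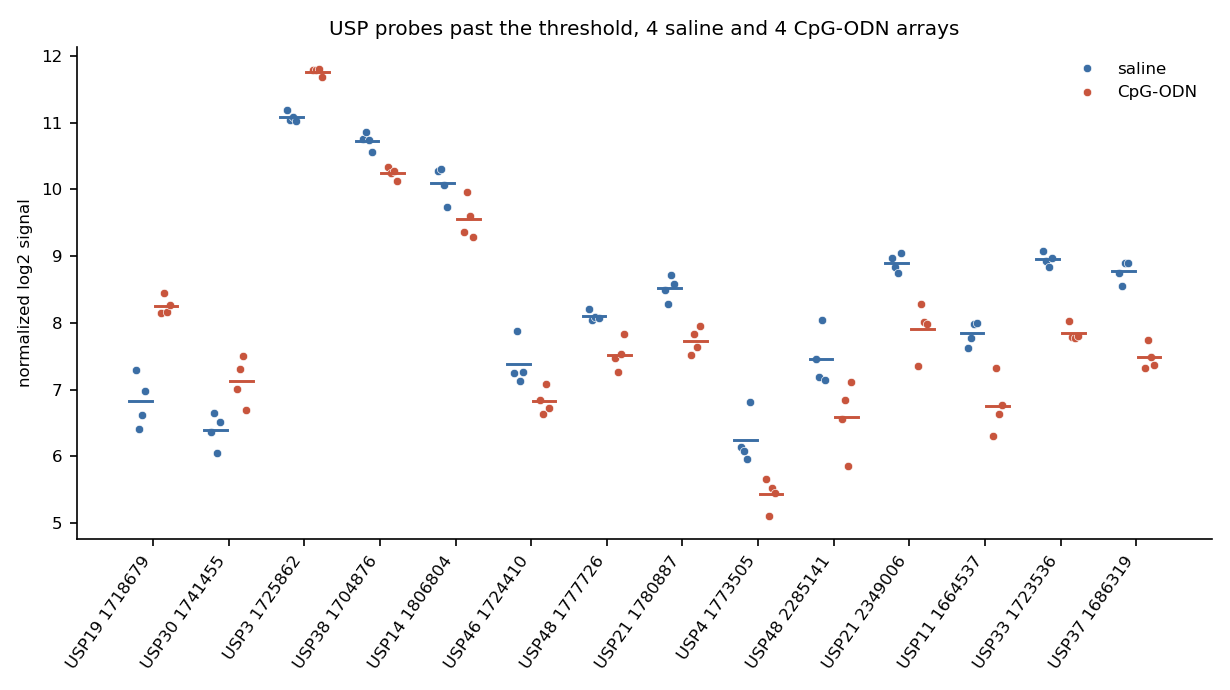
Normalized log2 signal (vertical axis) of the 14 called USP probes on each of 4 saline (blue) and 4 CpG-ODN (red) arrays, with a bar at each group's mean. Probes are ordered from the largest rise, USP19, to the largest fall, USP37, and the groups overlap only for USP14.

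To set these members beside their regulatory sequence, the RefSeq promoter windows of the GRCh38.p14 assembly were read, 250 bases before to 50 after each gene's start. Windows were found for 30 of the 36 genes. They were rich in G and C, at a median of 69.85% against 58.7% over 35116 windows of the same length, and held a median of 34 CG pairs against 14. The 35116 windows were not limited to genes with a kept probe, so here and below they are an unlike set. Whether detected genes in general differ from them was not tested. All windows were searched on both strands, and matches to different motifs were counted separately even where they overlapped. The ETS motif CCGGAAG was in 2 of 3 windows of genes that rose, in 3 of 6 of genes that fell and in 3 of 21 of the others (genes read by their brightest probe), and in 10.3% of all windows. Windows of 4 called genes with this motif, chosen after their values were seen, are shown, with it in capitals (read on the minus strand in USP38), because it stood in genes that rose and in genes that fell. It lies before the start in USP19, USP38 and USP11 and after it in USP33. USP19 (chr3:49120774-49121073, minus strand) rose. USP38 (chr4:143184667-143184966, plus strand), USP11 (chrX:47232759-47233058, plus strand) and USP33 (chr1:77759803-77760102, minus strand) fell.
USP19: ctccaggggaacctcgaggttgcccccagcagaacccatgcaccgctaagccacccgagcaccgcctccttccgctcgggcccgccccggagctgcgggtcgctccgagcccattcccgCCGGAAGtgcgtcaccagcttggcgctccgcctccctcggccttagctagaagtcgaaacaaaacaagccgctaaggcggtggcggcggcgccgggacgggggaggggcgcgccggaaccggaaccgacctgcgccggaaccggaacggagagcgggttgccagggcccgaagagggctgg
USP38: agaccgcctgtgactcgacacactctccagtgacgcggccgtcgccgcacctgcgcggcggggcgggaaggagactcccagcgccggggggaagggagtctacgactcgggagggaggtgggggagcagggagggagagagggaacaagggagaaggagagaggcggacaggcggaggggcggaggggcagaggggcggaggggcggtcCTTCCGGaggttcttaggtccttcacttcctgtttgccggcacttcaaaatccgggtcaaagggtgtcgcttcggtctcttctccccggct
USP11: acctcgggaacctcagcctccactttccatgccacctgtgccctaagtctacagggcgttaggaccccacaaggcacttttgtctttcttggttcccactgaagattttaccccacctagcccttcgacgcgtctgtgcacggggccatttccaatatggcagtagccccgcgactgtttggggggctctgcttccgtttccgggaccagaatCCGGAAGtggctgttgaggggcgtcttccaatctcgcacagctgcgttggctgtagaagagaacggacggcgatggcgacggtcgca
USP33: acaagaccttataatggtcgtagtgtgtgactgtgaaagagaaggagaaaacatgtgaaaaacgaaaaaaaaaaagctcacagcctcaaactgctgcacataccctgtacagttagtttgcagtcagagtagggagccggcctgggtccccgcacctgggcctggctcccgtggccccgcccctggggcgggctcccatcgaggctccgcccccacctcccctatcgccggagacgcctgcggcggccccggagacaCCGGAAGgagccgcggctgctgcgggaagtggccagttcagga

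The GC box GGGCGG was in 24 of the 30 USP windows and in 45.0% of all windows. The CCAAT box (CCAAT) was in 9 of 30 and in 34.6% of all. The NRF1 motif, GCGCA and after 1 base GCGC, was in 3 of 30, those of USP14, USP21 and USP45, and in 5.8% of all. A loose form of the NF-kB site, GGGA and after 4 bases CC, was in 12 of 30 and in 25.6% of all. The interferon response core (GAAA and after 2 bases GAAA, in 3.6% of all), the E-box CACGTG (7.3%) and the p53 motif core (CATG and after 6 bases CATG, 0.4%) were in 0 of 30. These counts are descriptions of the letters in the windows.

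Among the members that act on DNA damage and chromatin, 13 probes of 8 genes were kept, with 1 higher (USP3) and 3 lower (1 of USP11 and 2 of USP48). Over all kept probes 26.6% were called, and the role groups given here and below are too small to set apart from that share. USP1, which removes ubiquitin from FANCD2 and PCNA, was close to the threshold by both probes. The brighter, ILMN_1696975, was at 11.36, 11.55, 11.19 and 11.25 in saline and 11.61, 11.60, 11.93 and 11.75 with CpG-ODN. All CpG-ODN arrays were above all saline arrays, at 0.38 ± 0.13 (SE, adjusted p = 0.0542). The other, ILMN_1737254, stood at 0.61 ± 0.21 (SE, adjusted p = 0.0568). Each probe of USP1 passed in alternatives, with adjusted p down to 0.0142 and 0.0148. With median scaling over all probes neither passed (adjusted p = 0.362 and 0.221). USP16, an H2A deubiquitinase needed in mitosis, stood at 0.16 and 0.11 by its probes. USP22, the deubiquitinase of the SAGA complex, stood at 0.36 and USP45, a partner of ERCC1, at -0.14. USP49, which acts on histone H2B, had the widest CpG-ODN group of the family. It ran from 10.06 to 12.11 with CpG-ODN (SD 0.91, n = 4) and from 11.13 to 12.16 in saline, at -0.23 ± 0.40 (SE, adjusted p = 0.719).

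Of the members that stabilise MDM2, or p53 and other tumor suppressors, 5 probes of 4 genes were kept. Of these 0 passed limma's threshold, with 1 at an unadjusted p under 0.05. Against 26.6% called among all kept probes, 5 probes are too few to tell a difference. USP7, which keeps MDM2 and p53 stable, stood at -0.13 ± 0.15 (SE, adjusted p = 0.579). USP42 stood at -0.24 and -0.14 and USP13 at 0.20. USP2, known for cyclin D1, was at 5.80, 5.77, 5.32 and 5.93 in saline and 6.01, 6.05, 6.60 and 6.22 with CpG-ODN. Its groups did not overlap, yet at 0.52 ± 0.18 (SE, adjusted p = 0.052) it did not pass, and it was detected on 3 of 4 saline arrays.

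Of the members that recycle ubiquitin chains or serve the proteasome and spliceosome, 8 probes of 5 genes were kept and 2 fell. These were 1 of USP14 and the dim one of USP4 that had to differ, where 26.6% of all kept probes were called. USP14, which trims chains at the proteasome, fell by its probe ILMN_1806804. That probe was at 10.27, 10.31, 10.06 and 9.74 in saline and 9.36, 9.96, 9.60 and 9.28 with CpG-ODN, and the groups overlapped. On the log2 scale the change was -0.55 ± 0.18 (SE, adjusted p = 0.0498), at the edge of the threshold, and leaving out any 1 of 6 arrays ended the call (adjusted p up to 0.124). Only without saline replicate 4 or CpG-ODN replicate 2 did it stay. The other USP14 probe, ILMN_2402947, was at 9.21, 9.06, 8.76 and 9.03 in saline and 8.33, 8.64, 8.72 and 8.83 with CpG-ODN. It stood at -0.39 ± 0.15 (SE) with overlapping groups and did not pass (adjusted p = 0.077). USP5, which takes apart free ubiquitin chains, was lower on every CpG-ODN array (12.13 to 12.25) than on every saline array (12.38 to 12.53). At -0.30 ± 0.11 (SE, adjusted p = 0.0583) it did not pass here. It passed in 3 alternatives: no background correction, the authors' second table and detection on all 8 arrays. With median scaling over all probes it did not pass (adjusted p = 0.241). USP39 of the spliceosome stood at 0.03 and USP15, which acts in TGF-beta signaling, at -0.14 and 0.47. Without CpG-ODN replicate 4, the second USP15 probe (ILMN_1867588) stood at 0.81 and passed (adjusted p = 0.0095).

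Of the members tied to endosomes, receptors and secretory traffic, 8 probes of 6 genes were kept. Among these USP19 was called higher and USP33 and USP46 lower, where 26.6% of all kept probes were called. USP8, which acts on receptors sorted by the ESCRT machinery, stood at -0.26 ± 0.13 (SE, adjusted p = 0.162) and -0.19 ± 0.17 (SE, adjusted p = 0.446). USP12, a close relative of USP46, stood at 0.37 ± 0.19 (SE, adjusted p = 0.178). USP6 stood at -0.05, and since part of USP6 is near-identical to USP32 its probe may read both genes. Among signaling members, 2 of 7 probes of 6 genes passed, both of USP21, against the same 26.6% of all kept probes. USP9X, which protects many substrates from the proteasome, was lower on every CpG-ODN array (10.37 to 10.54) than on every saline array (10.68 to 10.87). At -0.31 ± 0.11 (SE, adjusted p = 0.0628) it passed only in the same 3 alternatives as USP5. With median scaling over all probes it did not pass (adjusted p = 0.135). USP34, which acts on axin, did not overlap either, at -0.25 ± 0.11 (SE, adjusted p = 0.127). USP25 stood at -0.65 ± 0.26 (SE, adjusted p = 0.0916), the largest fall that did not pass, though it passed with median scaling over all probes (adjusted p = 0.0402) and without saline replicate 4 (adjusted p = 0.00688). It was above background on 3 saline and 2 CpG-ODN arrays. USP24 stood at 0.34 and USP47, which acts on DNA polymerase beta, at -0.40. Of the less studied members USP38 fell, while USP54 stood at -0.38, USP53 at 0.20 and USP26, a gene known from the testis, at 0.27.

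Where a gene had more than 1 kept probe, the probes did not always move alike. This held 10 genes and 15 pairs of probes. USP33 differed most, since its second probe, ILMN_2306077, was at 5.93, 6.87, 6.88 and 7.0 in saline and 6.8, 6.68, 7.03 and 6.55 with CpG-ODN. That is a change of 0.10 ± 0.23 on the log2 scale (SE, adjusted p = 0.796), against -1.10 for the first probe. The second probe is dim, with 26.18% of all kept probes dimmer. Its saline replicate 1 lay far below the other saline arrays, and without that array the change was -0.15. The platform annotation assigns these probes to different RefSeq transcripts of USP33. The difference between the probes' log2 fold changes was -1.20 ± 0.31 (SE, n = 4 per group), and the groups did not overlap (two-sided exact permutation test, p = 0.0286, adjusted p = 0.107 over the 15 pairs).

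USP48, which acts on H2A near sites of DNA damage, had 4 kept probes. Probe ILMN_1777726 was at 8.21, 8.05, 8.09 and 8.07 in saline and 7.47, 7.26, 7.54 and 7.83 with CpG-ODN, and it fell, at -0.58 ± 0.14 (SE, adjusted p = 0.011). Probe ILMN_2285141 was at 7.46, 7.19, 8.05 and 7.14 in saline and 6.56, 6.85, 5.85 and 7.12 with CpG-ODN, and fell, at -0.86 ± 0.28 (SE, adjusted p = 0.044). The groups of the second probe almost met, and leaving out any 1 of 6 arrays ended its call (adjusted p up to 0.109). Only without saline replicate 4 or CpG-ODN replicate 4 did it stay. The brightest USP48 probe, ILMN_1738572, was at 9.65, 9.36, 9.49 and 8.95 in saline and 9.39, 9.45, 9.81 and 9.39 with CpG-ODN, at 0.14 ± 0.17 (SE, adjusted p = 0.579). The annotation assigns it to another RefSeq transcript than the other 3. The dimmest, ILMN_1756873, was at 5.87, 6.03, 5.67 and 5.89 in saline and 5.99, 5.75, 6.10 and 5.54 with CpG-ODN, at -0.02 ± 0.15 (SE, adjusted p = 0.946). The brightest probe differed from the 2 that fell by 0.73 ± 0.20 and 1.01 ± 0.41 (SE, exact permutation test, two-sided p = 0.0286 and adjusted p = 0.107 for each).

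USP4, which acts in splicing and TGF-beta signaling, was called by its dim probe alone. ILMN_1773505 was at 6.14, 6.08, 5.96 and 6.81 in saline and 5.66, 5.10, 5.52 and 5.45 with CpG-ODN. It was detected on all 4 saline arrays and on 0 CpG-ODN arrays, so it was kept through the saline group alone and had to differ. It was at least 1.38-fold lower with CpG-ODN, taking the lowest detected signal as the floor. The fit's adjusted p of 0.0131 is a description, since the filter fixed the direction, and the call was lost with the median scaling over the kept probes (adjusted p = 0.057). The brighter probe, ILMN_1798712, was at 8.91, 8.90, 8.68 and 8.91 in saline and 8.63, 8.70, 8.95 and 8.50 with CpG-ODN. It stood at -0.16 ± 0.13 (SE, adjusted p = 0.42) with overlapping groups. No difference between the probes is given, since the dim one has only a bound with CpG-ODN.

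Of the 15 pairs, 4 had an unadjusted p under 0.05, namely those of USP33 and USP4 and 2 of USP48, and 0 passed after adjustment. That of USP4 rests on values not above background. With 4 arrays in each group the smallest two-sided p is 0.0286. The 4 pairs at that p could not pass after adjustment over the 15, however far apart their groups, so no conclusion is drawn from 0 passing. No gene had probes called in opposite directions. The probes of USP1, USP8, USP14, USP16, USP21 and USP42 differed by 0.05 to 0.22 in their log2 fold changes (unadjusted exact permutation p from 0.229 to 0.886). Those of USP15 stood on opposite sides of 0 and differed by -0.61 ± 0.33 (SE, exact permutation p = 0.143).

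**Figure D4:**
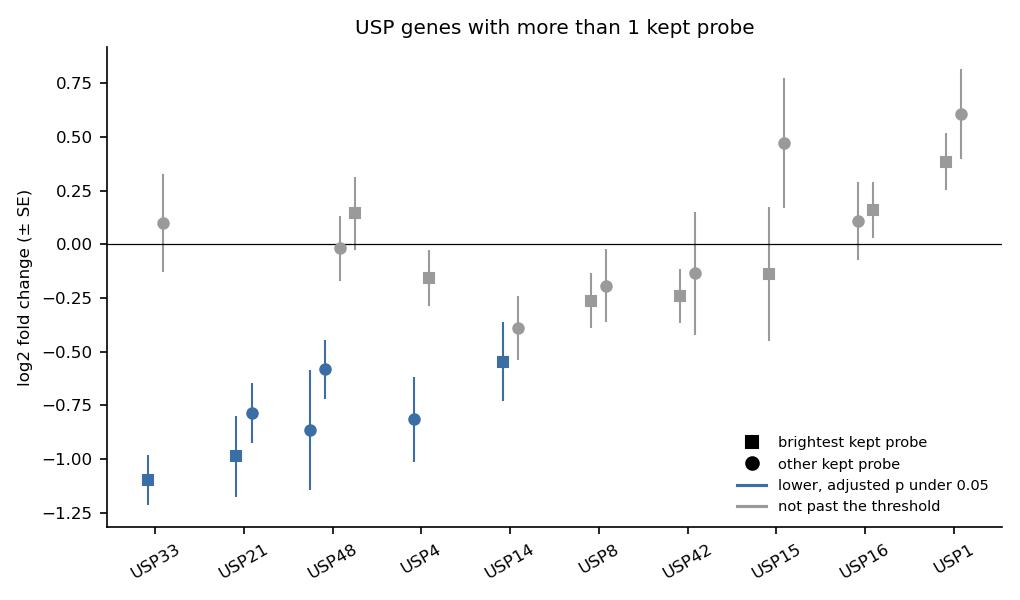
Log2 fold change of CpG-ODN over saline (vertical axis) with its standard error for each kept probe of the 10 USP genes with more than 1, squares for the brightest probe and circles for the others. Blue probes fell and grey ones did not pass, and USP33, USP48 and USP4 hold both kinds, as does USP14.

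Related USP genes were compared by the difference of their log2 signals on each array. Of 13 pairs listed, 7 had both genes kept. USP12 and USP46 share WDR48 as an activating partner, and the change of USP12 exceeded that of USP46 by 0.92 ± 0.19 (SE, n = 4 per group). USP4 exceeded USP11 by 0.93 ± 0.27, and USP9X lay below USP24 by a difference of -0.65 ± 0.20. In each of these 3 pairs the groups did not overlap (two-sided exact permutation test, p = 0.0286, adjusted p = 0.0667 over the 7 pairs). None of the 7 passed the adjusted threshold, which 3 pairs at the smallest possible p could not reach. USP53 and USP54 differed by 0.58 ± 0.24 (exact permutation p = 0.0571), USP11 and USP15 by -0.94 ± 0.43 (0.0857), USP16 and USP45 by 0.30 ± 0.31 (0.343) and USP4 and USP15 by -0.02 ± 0.36 (0.971).

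**Figure D5:**
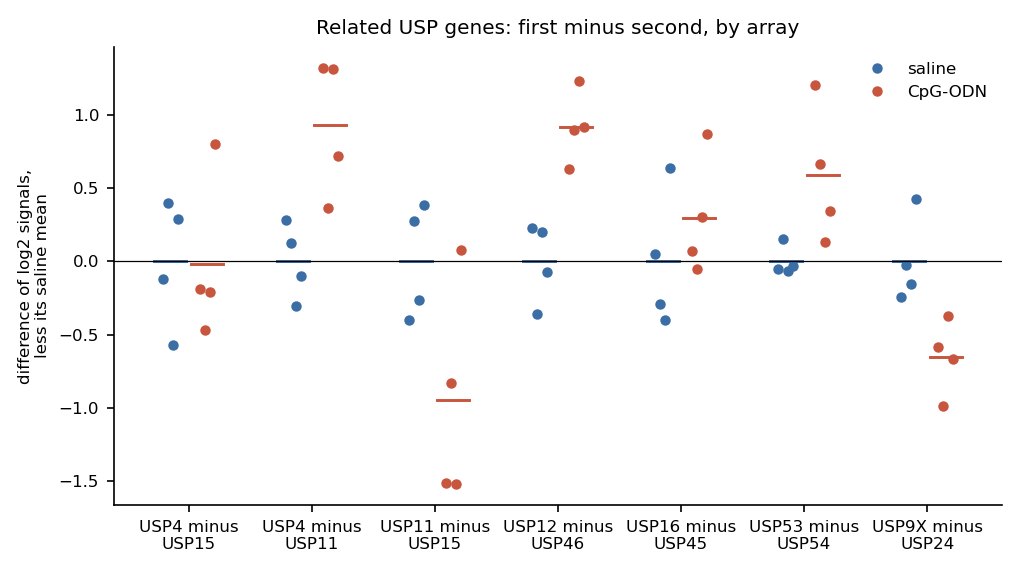
Difference of log2 signals between the genes of each related pair (vertical axis, first gene minus second, less its saline mean) on 4 saline (blue) and 4 CpG-ODN (red) arrays, with bars at the means. The groups do not overlap for USP4 minus USP11, USP12 minus USP46 and USP9X minus USP24.

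Deubiquitinases outside the USP genes were changed at 12 of 32 kept probes, 37.5%, with 4 higher and 8 lower over 29 genes, against 26.6% of all kept probes (12.8% higher and 13.9% lower). With the median scaling over all probes 1 rose and 7 fell, and without CpG-ODN replicate 2 the count was 8. Their median log2 fold change was 0.04. OTUB2 fell, at -1.76 ± 0.24 (SE, adjusted p = 0.000684) and was detected on 3 of 4 CpG-ODN arrays. STAMBP and STAMBPL1, metalloproteases that act at endosomes, both fell. STAMBP stood at -0.71 and -0.70 by its probes (adjusted p = 0.00152 and 0.00288), and STAMBPL1 was called (adjusted p = 0.00459) with 1 of 4 CpG-ODN arrays above background, so no size is given for it. MINDY3 fell, at -0.81 ± 0.14 (adjusted p = 0.00269). YOD1, a partner of the segregase p97, rose by 1.01 ± 0.20 (adjusted p = 0.00439), and OTUB1, which also blocks ubiquitin conjugation, rose by 0.58 and 0.47 by its probes (adjusted p = 0.00743 and 0.0199). CYLD, a USP-type enzyme of NF-kB signaling, stood at 0.43 ± 0.23 (adjusted p = 0.206).

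Partners and substrates of USP enzymes and ubiquitin genes were changed at 12 of 33 kept probes, 36.4%, with 5 higher and 7 lower over 24 genes, against 26.6% of all kept probes (12.8% higher and 13.9% lower). Their median was -0.02. With the median scaling over all probes 0 rose and 6 fell, and without saline replicate 3 or CpG-ODN replicate 3 it was 6 or 7. TP53BP1, a binding partner of USP28, fell, at -1.24 ± 0.12 (adjusted p = 0.000137). G3BP1, the stress granule partner of USP10, fell by both probes, at -1.18 and -0.91 (adjusted p = 0.000222 and 0.00198). FANCI stood at -0.74 and CHEK1 at -0.48, both called. WDR20, a partner of USP12 and USP46, rose by 2 of its 3 probes (0.53 and 0.87, adjusted p = 0.0146 and 0.0428). The second of these was dim, was detected on 3 of 4 saline arrays and had overlapping groups. The third probe, the brightest, stood at 0.17 and did not pass (adjusted p = 0.395), so WDR20 was not called by its brightest probe. WDR48, which activates USP1, USP12 and USP46, stood at -0.08 ± 0.12 (adjusted p = 0.692). MDM2, a substrate of USP7, rose by 0.56 ± 0.15 (adjusted p = 0.0215) with overlapping groups.

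The other 11 USP genes of the platform had no kept probe, namely USP9Y, USP20, USP27X, USP28, USP29, USP31, USP40, USP43, USP44, USP50 and USP51. Of the 21 USP probes that were not kept, 15 were not above background on any array, and that of USP27X came nearest, on 3 arrays. USP10, USP32 and USP36 were not analysed here. Just inside the limit, on 4 arrays, were the dim probes of USP4 and USP15. Of the 48 kept, 39 were detected on all 8 arrays, 7 on fewer CpG-ODN than saline arrays and 2 on fewer saline than CpG-ODN arrays. Within a group the SD of the normalized log2 signal of a USP probe had a median of 0.22 and ran from 0.029 to 0.91 (n = 4).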

How the data were processed

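Each sample was read on its own 1-colour Illumina bead array. The table used here holds deposited average intensity per probe and array, not normalized per the file headers, and beside each value a deposited detection p-value. Per the submitters' processing notes BeadStudio was used. A second deposited table of intensity values, normalized by the authors with a method not given in the sources used here, ranked the probes of every array alike and served as an alternative.

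Signals were corrected and quantile normalized with neqc of limma 3.58.1 in R 4.3.3, with background inferred from the detection p-values and an offset of 16. All 18184 kept probes were fitted with lmFit and eBayes, with Benjamini-Hochberg adjustment over all of them and a threshold of 0.05. Differences between probes or related genes used exact permutation tests over the 8 arrays. Genes were named by the platform annotation, which gives 1 gene for 14584 kept probes, several for 3 and none for 3597. The fit and the permutation test were tested on simulated data.

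Values on every array are given for up to 12 called probes in each direction with the largest changes and no overlap, and for genes with several kept probes of which 1 was called. Up to 6 members with the smallest p are named from the other lists. Others were named after their values were seen. The members and lists were chosen with earlier results of these data known. Arrays are not tied to mice, so p-values cover only the spread between arrays, and the number of arrays limits the precision. The sequence of 1 further promoter window is not reported here.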

Additional observations from a re-analysis of the deposited data

Results flagged for a closer look

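In 12 of the 96 groups of 4 arrays examined (12.5%), 1 array stood far from the other 3. The nominal rate for independent normal values is about 1 in 20. These groups share the same 8 arrays and the share over all kept probes was not computed, so no excess is claimed. What is given for each is the gap to the nearest array as a share of the range of the group. Among the called probes, CpG-ODN replicate 4 was the lowest for USP3 (0.857, at 11.68 with the others at 11.79 to 11.80), and CpG-ODN replicate 1 was the highest for USP33 probe ILMN_1723536 (0.859, at 8.03 with the next at 7.81). Neither array overlapped the saline group. Among the probes that did not pass, saline replicate 3 was the lowest for USP15 probe ILMN_1867588 (0.955) and for USP4 probe ILMN_1798712 (0.992). Saline replicate 4 was the lowest for USP45 (0.888) and USP25 (0.874). Without saline replicate 4 the log2 fold change of USP25 passed (adjusted p = 0.00688). Saline replicate 2 was the highest for USP8 probe ILMN_1715188 (0.965) and USP34 (0.856). Saline replicate 1 was the highest for USP16 probe ILMN_2397231 (0.882) and the lowest for USP33 probe ILMN_2306077 (0.877). CpG-ODN replicate 3 was the highest for USP48 probe ILMN_1738572 (0.86), and CpG-ODN replicate 4 the highest for USP5 (0.94).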

How the results depend on the processing

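USP probes called numbered 11 to 18 over the 17 alternatives, and 9 of the 14 called probes stayed called in every one that tested them. The exceptions were USP30, USP14, USP46, USP4 (ILMN_1773505) and USP48 (ILMN_2285141), and the cause was not tested. The median of USP probes was -0.0747 with no background correction, -0.0751 in the authors' second table, -0.0453 with no filter on dim probes and -0.30 with median scaling over all probes. Leaving out single arrays gave medians of -0.21 to -0.0819, 8 to 12 other deubiquitinase probes and 6 to 10 partner probes. Median scaling over all probes gave 6 partner probes. In every setting run for them, 0 related pairs passed, with 1 to 4 at an unadjusted exact permutation p under 0.05. With so few arrays, that many pairs could not pass after adjustment, so no conclusion is drawn from this. Median scaling over the kept probes was an alternative chosen after seeing the data.

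Sign changes touched uncalled probes alone. With median scaling over all probes USP16 (ILMN_2397230) stood at -0.018, USP33 (ILMN_2306077) at -0.0502, USP39 at -0.068 and USP48 (ILMN_1738572) at -0.036. With median scaling over the kept probes USP48 (ILMN_1756873) stood at 0.15 and USP6 at 0.003. Leaving out single arrays gave -0.15 to 0.21 for USP33 (ILMN_2306077), -0.14 to 0.0678 for USP6, -0.10 to 0.085 for USP48 (ILMN_1756873), -0.34 to 0.18 for USP42 (ILMN_1752575), -0.0069 to 0.11 for USP39, -0.50 to 0.18 for USP49, -0.29 to 0.20 for USP15 (ILMN_1665557) and -0.37 to 0.11 for USP45.

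With the replicate number as a block, 13 USP probes were called, 3 higher and 10 lower, and USP46 (adjusted p = 0.0919) and USP48 (ILMN_2285141, adjusted p = 0.108) lost their calls while USP25 gained one (adjusted p = 0.0332). Deviations of same-numbered arrays correlated at 0.024, -0.052, -0.27 and 0.087, so the numbers were not taken as pairs. Slide was not run as a block, since no header names one.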
